A study of Mus musculus with 16 samples.

Results

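The question was whether the prostate of the mutant mouse answers finasteride differently from the wild-type prostate, and for which genes the answer turned round. For each gene the finasteride response of wild type (finasteride minus vehicle) was subtracted from that of the mutant, over all 16 libraries of the study. The deposited table lists 29535 genes, of which 16506 had a mean value of at least 3.32 on the log2 scale and were tested. A positive interaction means that the mutant response was the higher of the pair. An opposite response means that both finasteride responses and the interaction passed an adjusted p of 0.05 and that the responses had opposite signs, and 3310 of the 16506 genes (20.1%) met it.

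Prostate RNA enriched for poly-A was sequenced from mice aged 12 months, on a 129/SvImJ and C57Bl/6J hybrid background. Vehicle was given to 3 wild-type (+/+) and 3 homozygous mutant (-/-) samples, and finasteride to 5 of each genotype. The -/- label concerns 1 gene. The labels used here give neither the dose and duration of finasteride nor the prostate lobes taken, and they do not say that each library is a separate animal. The p-values therefore measure the spread between these samples, which may be partly technical.

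Finasteride blocks the 5-alpha-reductases, which turn testosterone into dihydrotestosterone, the more potent ligand of the androgen receptor. In the prostate this receptor drives the secretory program of luminal cells, and secretion places a heavy load on the endoplasmic reticulum, where new proteins are folded and the faulty ones are removed. Load beyond that capacity activates the sensors IRE1, PERK and ATF6, which induce chaperones, degradation genes and, through ATF4, genes of amino acid supply.

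Some libraries stood apart. In 5 of them (wild type on vehicle 3, wild type on finasteride 4, mutant on vehicle 3, mutant on finasteride 3 and 4) the values could be rebuilt, with a residual SD under 0.1 log2 units, as a weighted average of 2 further libraries from their group, so each result was also computed from the other 11. Finasteride library 2 of each genotype lay nearer to the vehicle libraries on the first principal component (50.7% of the variance), at -29.46 in wild type, against -78.3 to -65.5 for the other 4, and at 37.52 in the mutant, against 70.7 to 85.0. The vehicle libraries lay between them, at 4.03 to 15.3 in wild type and -26.7 to -24.6 in the mutant. Read depth is unknown, and log2 totals were 24.07 to 24.16 in the mutant on finasteride and 24.31 to 24.55 elsewhere. Prostatic secretory genes were abundant throughout, with a summed level of 22.1 to 22.2 in wild type on vehicle, 22.5 to 22.7 in wild type on finasteride, 21.9 to 22.1 in the mutant on vehicle and 19.7 to 21.5 in the mutant on finasteride. Seminal vesicle genes were also present and uneven within groups, with a summed log2 level of 15.6 to 21.8 in wild type on vehicle, 15.6 to 16.4 in wild type on finasteride, 17.5 to 18.3 in the mutant on vehicle and 17.02 to 21.5 in the mutant on finasteride.

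Finasteride moved many genes in opposite directions in the genotypes. It changed 6619 genes in wild type (40.1% of those tested), of which 3034 rose and 3585 fell, and 7996 in the mutant (48.4%), of which 4236 rose and 3760 fell. The interaction passed for 9339 genes (56.6%), with the mutant response higher for 4858 (29.4%) and lower for 4481 (27.1%). Both responses passed for 3740 genes, and for 3310 of these (88.5%) the signs were opposite, while 142 rose in both and 288 fell in both. The responses share no library, although all columns were normalized together.

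Of the genes with opposite responses, 1308 (7.92% of those tested) rose in wild type and fell in the mutant, with median changes of 0.44 and -0.48. The other 2002 (12.1%) fell in wild type and rose in the mutant, with median changes of -0.95 and 1.18. The downward set moved further by these medians, and it held less abundant genes (median log2 level 6.78, against 9.998 for the upward set). Both sets were chosen by p-value, so the change a gene needed to pass depended on its spread. Whether this accounts for the difference in size was not tested. In 1006 of the 1308 genes and 1356 of the 2002, no vehicle library overlapped a finasteride library in either genotype. The sets were chosen by calls from these same libraries, so such separation is partly built in. Of the 7167 genes without an interaction call, 414 were also separated in both genotypes. For 831 and 899 genes, respectively, both vehicle means lay between the means of the finasteride groups, a count not made over all tested genes. On vehicle, the downward set was lower in the mutant than in wild type by a median difference of -0.925, and the upward set was higher by 0.29.

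**Figure D1:**
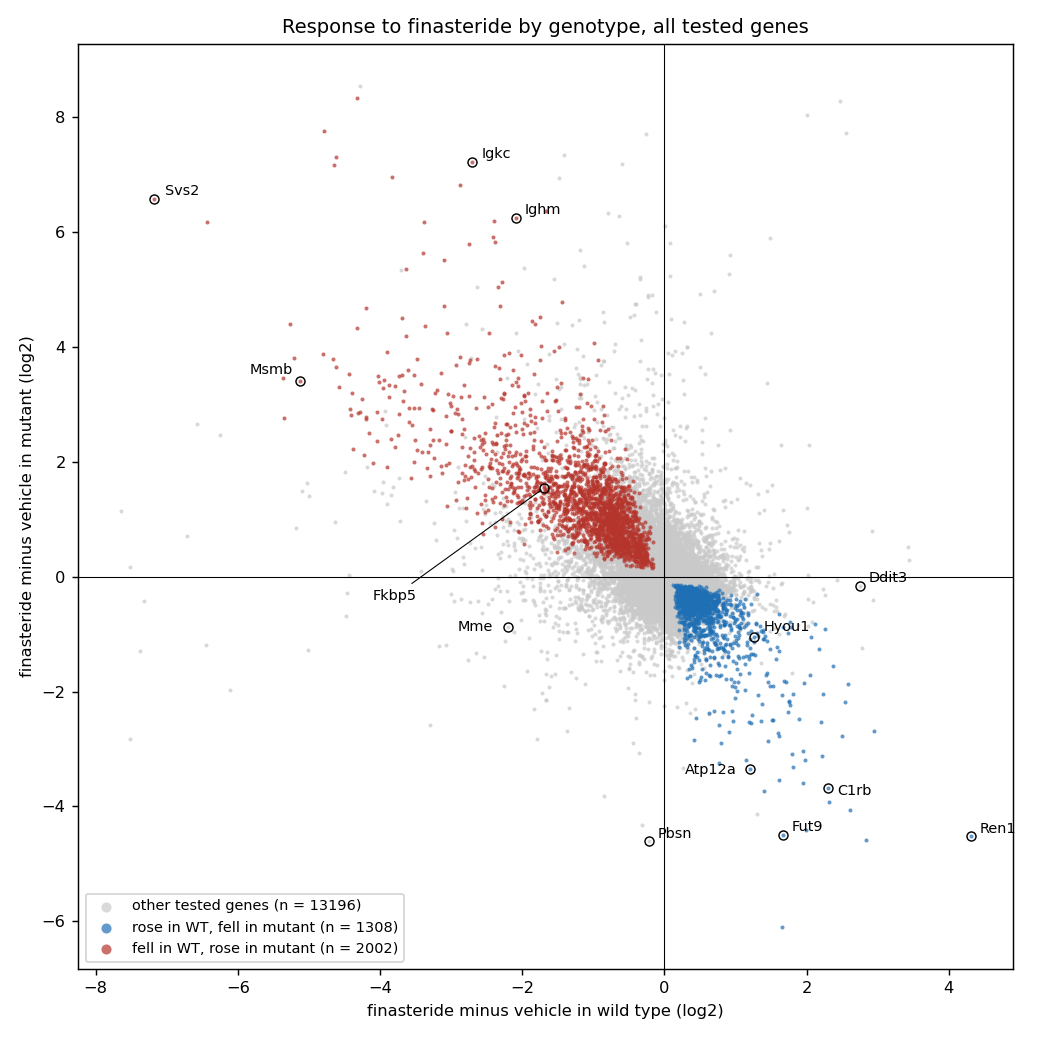
Finasteride response in wild type (x axis, log2) against the response in the mutant (y axis, log2) for each of the 16506 tested genes. Blue points rose in wild type and fell in the mutant (n = 1308), red points fell in wild type and rose in the mutant (n = 2002), grey points are the other tested genes, and circles mark genes described in the text.

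Fewer genes were called without the 5 mixture-like libraries. Leaving them out also made every group smaller, and no fit left out another set of 5 libraries. Whether calls were lost to the smaller groups or to the removal of these libraries in particular was therefore not tested. Over the remaining 11 libraries, finasteride changed 1437 genes in wild type (8.71%), of which 602 rose (3.65%) and 835 fell (5.06%). In the mutant it changed 3336 (20.2%). The interaction passed for 4841 genes (29.3%), and 560 (3.39%) had opposite responses, 222 upward and 338 downward in wild type. All 560 were among the 3310 in the same direction. The correlation of the responses across genes, a description of genes that are not independent, was -0.555 over 16 libraries and -0.536 over 11. Another scaling moved the median interaction of all genes from -0.022 to -0.16 (quantile normalization) or -0.21 (columns centred on their medians). With this shift the share of interaction calls that were higher went from 52.0% to 39.7% under either, and the share of opposite genes that rose in wild type from 39.5% to 58.5% and 57.1%. The balance between the directions is therefore not fixed by these data. Membership also changed: of the 3310 opposite genes, 2033 (61.4%) kept that call under quantile normalization and 2941 (88.9%) with centred columns. The directions of the genes named below held under every scaling tried unless stated.

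**Figure D2:**
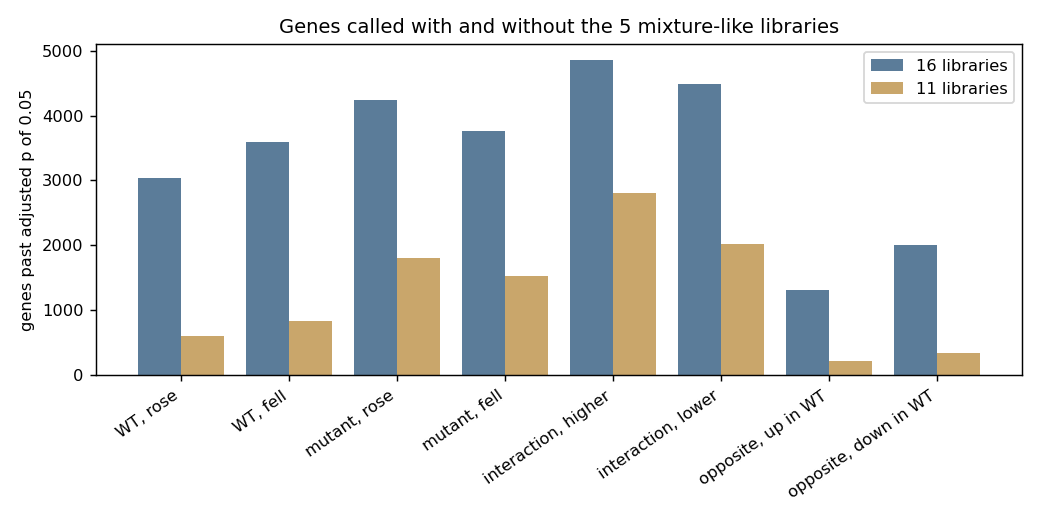
Number of genes past an adjusted p of 0.05 (y axis, from 0) in each finasteride response, in the interaction and in the opposite classes, over 16 libraries (blue bars) and over the 11 libraries that are not mixture-like (tan bars). Each bar is a count and has no error bar; the opposite genes went from 1308 and 2002 to 222 and 338.

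Genes of protein folding and degradation in the endoplasmic reticulum rose in wild type and fell in the mutant. Of 35 tested members, the interaction was lower for 31 (27.1% of all tested genes were), higher for 1 and not past the threshold for 3. Finasteride raised 21 of them in wild type, beside 18.4% of all tested genes, and lowered 29 in the mutant, beside 22.8%. The number that did both was 19, where 7.92% of all tested genes did. The median response was 0.43 in wild type and -0.67 in the mutant, beside -0.022 and -0.013 over all tested genes. Over 11 libraries 22 members had a lower interaction (12.3% of all genes) and 5 an opposite response (1.34%), and without finasteride library 2 of each genotype 29 had an opposite response.

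Hyou1, a large chaperone of the endoplasmic reticulum, shows the pattern. Hyou1 read 13.28, 13.54 and 13.40 in wild type on vehicle and 14.69, 14.33, 15.19, 14.83 and 14.32 in wild type on finasteride. In the mutant, Hyou1 read 13.37, 13.69 and 13.57 on vehicle and 12.29, 12.78, 12.45, 12.41 and 12.54 on finasteride. All 5 wild-type finasteride libraries lay above every other library, and all 5 mutant finasteride libraries lay below every vehicle library. Hyou1 rose by 1.27 ± 0.17 in wild type and fell by 1.05 ± 0.17 in the mutant, an interaction of -2.31 ± 0.24 (adjusted p = 2.37e-06).

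The sensors moved in the same way. Atf6, a membrane-bound transcription factor released by cleavage, was almost level between the vehicle groups, at 12.51 to 12.60 in wild type and 12.47 to 12.66 in the mutant. On finasteride Atf6 read 12.85, 12.97, 12.99, 13.005 and 13.01 in wild type and 11.12, 11.14, 11.17, 11.03 and 11.18 in the mutant. It rose by 0.42 ± 0.061 in wild type and fell by 1.44 ± 0.061 in the mutant, so the fall was the larger change (interaction -1.86 ± 0.087, adjusted p = 1.49e-09). Ern1, which encodes the IRE1 kinase and endoribonuclease, rose by 0.53 ± 0.059 in wild type and fell by 0.95 ± 0.059 in the mutant. Its mutant vehicle libraries stood higher than those of wild type, at 13.27 to 13.32 against 12.19 to 12.34. Hyou1, Atf6 and Ern1 had opposite responses over 11 libraries too.

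Among the chaperones, Hspa5 (BiP, the main Hsp70 of this compartment) rose by 1.05 ± 0.23 in wild type and fell by 1.02 ± 0.23 in the mutant. Hsp90b1 (GRP94) rose by 0.63 ± 0.18 and fell by 0.92 ± 0.18, and Dnajc3, an Hsp70 co-chaperone, rose by 0.43 ± 0.14 and fell by 1.39 ± 0.14. Creld2, a secretory-pathway protein induced by this stress, rose by 1.71 ± 0.30 and fell by 1.83 ± 0.30. In the degradation branch, Syvn1, the ubiquitin ligase HRD1, rose by 2.12 ± 0.27 and fell by 0.82 ± 0.27, and Derl3, a derlin of the retrotranslocation machinery, rose by 1.37 ± 0.26 and fell by 2.21 ± 0.26. The ligase gained more in wild type and the derlin lost more in the mutant. Of these 6 genes, Creld2 alone had an opposite response over 11 libraries. The rise in wild type missed the threshold for Dnajc3 without wild-type vehicle library 1 or 3 or finasteride library 4, and for Hsp90b1 without vehicle library 1, and the fall in the mutant missed it for Syvn1 without any 1 mutant vehicle library. Under quantile normalization the rise of Dnajc3 in wild type also missed it.

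These 6 genes are shown with the piece of their promoter that holds the endoplasmic reticulum stress element, CCAAT and CCACG separated by 9 bases, a sequence known to be bound by NF-Y and ATF6. RefSeq promoters on GRCm38.p6 (250 bases before to 50 after the gene start) were found for 15 of the 19 members with an upward opposite response, and 6 of the 15 held the element on either strand, against 35 of all 27025 promoters (0.13%). Fewer than 80% of the 19 matched a promoter, so a comparison of these shares is void and the matches are given as descriptions. The list was also drawn from genes of folding and degradation in this compartment. The share among its members without an opposite response was not computed, so the matches say nothing about the opposite response. Capitals mark the element, which reads in reverse complement in Creld2 and Derl3, and 20 flanking bases are given on each side in the direction of the gene.
Hspa5, chr2:34772005-34772063, plus strand: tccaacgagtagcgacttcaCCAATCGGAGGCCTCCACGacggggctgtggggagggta
Hsp90b1, chr10:86705618-86705676, minus strand: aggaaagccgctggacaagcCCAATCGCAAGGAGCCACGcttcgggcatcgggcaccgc
Dnajc3, chr14:118937807-118937865, plus strand: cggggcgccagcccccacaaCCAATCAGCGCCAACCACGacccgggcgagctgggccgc
Creld2, chr15:88819500-88819558, plus strand: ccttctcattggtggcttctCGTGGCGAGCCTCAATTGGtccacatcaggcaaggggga
Syvn1, chr19:6046512-6046570, plus strand: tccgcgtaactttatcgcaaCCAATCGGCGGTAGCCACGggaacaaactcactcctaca
Derl3, chr10:75893222-75893280, plus strand: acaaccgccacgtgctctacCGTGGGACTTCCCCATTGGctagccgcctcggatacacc
The element starts -65, -212, -105, -126, -44 and -156 bases from the gene start, in that order, and Hsp90b1 holds 2 copies. A match is a stretch of letters and not a measured binding site.

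The integrated stress response, the ATF4 branch that raises amino acid transporters and tRNA synthetases, moved in the same direction. Of 35 members, the interaction was lower for 26, higher for 3 and not past the threshold for 6. In wild type 29 rose and 3 fell, in the mutant 3 rose and 21 fell, and 19 rose in wild type and fell in the mutant (medians 0.78 and -0.47). Of all tested genes 18.4% rose in wild type, 22.8% fell in the mutant and 7.92% did both. Over 11 libraries 24 had a lower interaction (12.3% of all genes) and 6 this opposite response (1.34%).

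Slc7a5, the large neutral amino acid transporter LAT1, is the member described in full. Slc7a5 read 11.93, 12.22 and 12.003 in wild type on vehicle and 13.32, 12.98, 13.57, 13.28 and 12.97 in wild type on finasteride. In the mutant, Slc7a5 read 12.30, 12.42 and 12.33 on vehicle and 11.47, 11.34, 11.41, 11.38 and 11.28 on finasteride. Every wild-type finasteride library lay above all vehicle libraries and every mutant finasteride library below them. Slc7a5 rose by 1.17 ± 0.12 in wild type and fell by 0.97 ± 0.12 in the mutant, an interaction of -2.14 ± 0.16 (adjusted p = 1.46e-07). Its partner chain Slc3a2 rose by 0.93 ± 0.098 in wild type and fell by 0.31 ± 0.098 in the mutant, where the fall was small and missed the threshold over 11 libraries, without mutant vehicle library 2 and under quantile normalization.

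Among the tRNA synthetases, Gars (glycine) rose by 0.74 ± 0.11 in wild type and fell by 1.03 ± 0.11 in the mutant, and Nars (asparagine) rose by 0.47 ± 0.062 and fell by 0.69 ± 0.062. Aars (alanine) rose by 0.53 ± 0.085 and fell by 0.47 ± 0.085, and Tars (threonine) rose by 0.40 ± 0.092 and fell by 0.64 ± 0.092. In wild type each synthetase rose by less than the transporter did. Asns, which makes asparagine, rose by 0.56 ± 0.11 and fell by 1.02 ± 0.11. The stress-induced transcription factor Atf3 rose by 1.74 ± 0.17 and fell by 0.98 ± 0.17, and Chac1, which degrades glutathione, rose by 2.06 ± 0.34 and fell by 1.05 ± 0.34. Slc7a5, Gars, Nars, Aars and Atf3 had opposite responses over 11 libraries, and Asns, Tars and Chac1 did not. The fall of Chac1 in the mutant also missed the threshold without mutant vehicle library 2 or 3.

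Of the 19 upward opposite members, 16 had a RefSeq promoter. The C/EBP-ATF response element, TGATGNAA, which ATF4 dimers are known to bind, was in 6 of the 16, against 1096 of 27025 promoters (4.06%). The list was drawn from the ATF4 branch, and the share among its members without an opposite response was not computed. The comparison therefore says nothing about the opposite response, and the matches are descriptions. These 6 windows are shown in the same way, with the element in capitals (in reverse complement in all but Asns).
Atf3, chr1:191183416-191183463, minus strand: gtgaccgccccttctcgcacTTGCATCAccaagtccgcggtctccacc
Asns, chr6:7693205-7693252, minus strand: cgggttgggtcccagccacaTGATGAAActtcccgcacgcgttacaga
Chac1, chr2:119351029-119351076, plus strand: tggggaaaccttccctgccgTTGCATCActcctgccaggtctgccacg
Aars, chr8:111033710-111033757, plus strand: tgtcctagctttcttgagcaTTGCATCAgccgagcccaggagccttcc
Gars, chr6:55037951-55037998, plus strand: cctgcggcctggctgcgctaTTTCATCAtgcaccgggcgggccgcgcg
Tars, chr15:11399646-11399693, minus strand: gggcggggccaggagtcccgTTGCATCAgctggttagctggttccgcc
In all, 7 motifs were searched in the opposite members of 4 lists, and both motifs and windows shown were picked after the matches were seen. The heat shock element core GAANNTTC (7.95% of promoters), the cAMP response element TGACGTCA (1.88%), the AP-1 element TGANTCA (7.93%), the androgen response element, GNACA and TGTNC separated by 3 bases (0.463%), and the CCAAT box (37.9%) were the others. CCAAT is also the first part of the stress element. The CCAAT box was in 12 of the 15 endoplasmic reticulum promoters and in 11 of the 16 of the integrated stress response. The AP-1 element was in 4 of the 15, and no other motif was in more than 1 promoter of either list apart from those shown. Of 11 androgen-induced genes with a downward opposite response, 8 had a promoter. The androgen response element was in 0 of these 8, the CCAAT box in 1 and no other motif in any. Both upward opposite genes of the cytosolic heat shock list had a promoter. The heat shock element core was in 1 and the CCAAT box in 2.

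Ddit3 (CHOP), the transcription factor tied to prolonged stress, responded in wild type. Ddit3 read 7.84, 8.70 and 8.52 in wild type on vehicle and 11.44, 10.50, 12.12, 11.47 and 9.99 in wild type on finasteride. In the mutant, Ddit3 read 8.36, 8.32 and 8.25 on vehicle and 8.09, 8.29, 8.10, 8.10 and 8.19 on finasteride. The wild-type finasteride libraries lay above all others, and the mutant groups overlapped. Ddit3 rose by 2.75 ± 0.34 in wild type, whereas its mutant value of -0.16 did not pass (adjusted p = 0.732), with an interaction of -2.90 ± 0.49 (adjusted p = 0.00015).

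Most cytosolic heat shock genes rose in wild type, and fewer changed in the mutant. Of 25 members, 18 rose and 2 fell in wild type, while 3 rose and 5 fell in the mutant, and the interaction was lower for 19 and higher for 2. Of all tested genes 18.4% rose in wild type, 22.8% fell in the mutant and 27.1% had a lower interaction. Over 11 libraries 6 of the 25 were lower, beside 12.3% of all genes. Without finasteride library 2 of each genotype 10 fell in the mutant. Hspa1a, the inducible Hsp70, rose by 3.44 ± 0.63 in wild type, with libraries at 11.52, 9.70, 11.69, 10.81 and 7.70 against 6.47, 7.17 and 6.91 on vehicle, so finasteride library 5 stood close to vehicle. Its mutant change of 0.29 did not pass, and its interaction of -3.15 ± 0.89 missed the threshold over 11 libraries. Hspa1a and Hspa1b are near-identical copies, so reads may have been split between them.

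Upward opposite responses numbered 2 of the 25, a share near the 7.92% of all tested genes, 5 with columns centred on their medians and 7 without finasteride library 2 of each genotype. Fkbp4 (FKBP52), a co-chaperone of steroid receptors, rose by 0.76 ± 0.13 in wild type and fell by 0.59 ± 0.13 in the mutant, and Hspd1, the mitochondrial chaperonin, rose by 0.62 ± 0.13 and fell by 0.44 ± 0.13. The small heat shock protein Hspb8 went the other way: it fell by 0.58 ± 0.098 in wild type and rose by 1.48 ± 0.098 in the mutant (interaction 2.06 ± 0.14, adjusted p = 4.76e-08). Hspb8 kept this over 11 libraries, and Fkbp4 and Hspd1 did not. The fall of Hspd1 in the mutant also missed the threshold without mutant vehicle library 1 and under quantile normalization.

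Ribosomal protein genes, many of which have processed copies that could share reads, rose in wild type and mostly did not pass in the mutant. Of 61 members, 38 rose in wild type, 3 fell in the mutant, and the interaction was lower for 34. Of all tested genes 18.4% rose in wild type, 22.8% fell in the mutant and 27.1% had a lower interaction. Over 11 libraries 3 of the 61 were lower, beside 12.3% of all genes. Opposite responses of the 61 numbered 1 over 16 libraries and 21 without finasteride library 2 of each genotype. Nuclear genes of oxidative phosphorylation had 12 of 60 lower and 2 higher interactions, and 7 rose in wild type. None of these exceeded the share over all tested genes, where 27.1% were lower, 29.4% higher and 18.4% rose in wild type. The interaction counts of this list varied with the setting. They were 6 lower and 7 higher under quantile normalization, 24 and 1 with columns centred on their medians, and 33 and 2 without finasteride library 2 of each genotype. In the last of these 32 rose in wild type and 17 had an upward opposite response, against 1 over 16 libraries.

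**Figure D3:**
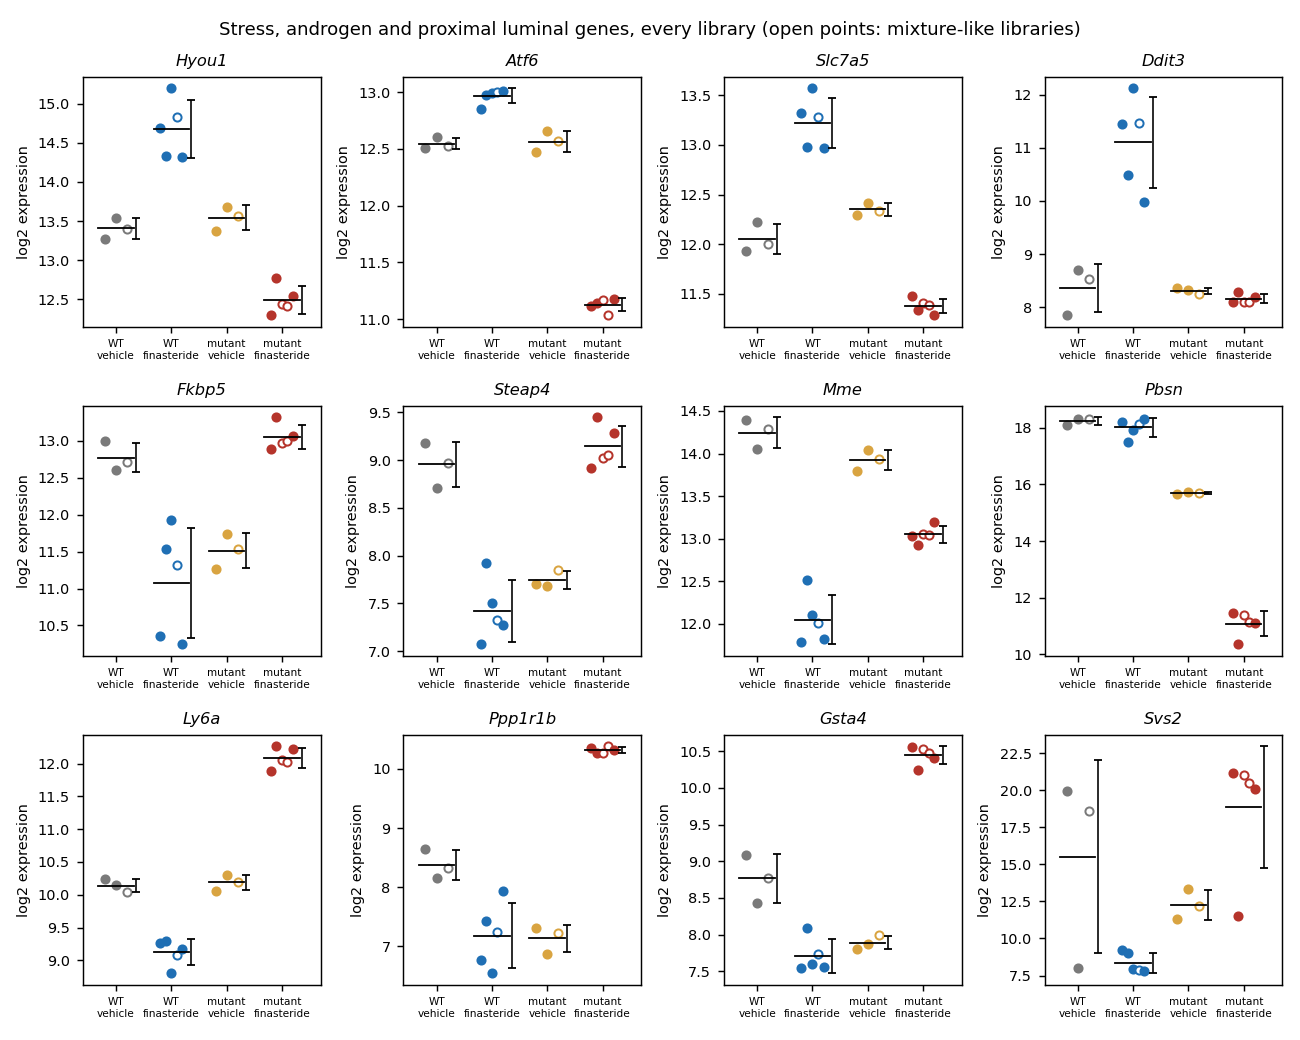
Deposited log2 expression (y axis, a separate range for each panel) of 12 genes in every library by group (x axis). Each point is a library, open points are mixture-like libraries, horizontal lines are group means and bars are the SD (n = 3 on vehicle, n = 5 on finasteride). Hyou1, Atf6 and Slc7a5 are highest in wild type on finasteride and lowest in the mutant on finasteride, and Steap4, Gsta4 and Ly6a show the reverse shift.

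Cellular genes that androgen induces fell in wild type, as a group, and were split in the mutant. Of 36 members, 19 fell and 3 rose in wild type, whereas 14 rose and 10 fell in the mutant. Over all tested genes 21.7% fell in wild type and 25.7% rose in the mutant. The interaction was higher for 18 (29.4% of all genes) and lower for 8, and 11 fell in wild type and rose in the mutant, against 12.1% of all tested genes. Over 11 libraries 4 did so (2.05% of all genes). The median response was -0.57 in wild type and 0.11 in the mutant, the latter changing sign to -0.019 when columns were centred on their medians.

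Fkbp5 (FKBP51), a co-chaperone of steroid receptors and a common readout of androgen receptor activity, reversed. Fkbp5 read 12.995, 12.61 and 12.72 in wild type on vehicle and 10.36, 11.54, 11.93, 11.32 and 10.24 in wild type on finasteride. In the mutant, Fkbp5 read 11.27, 11.73 and 11.54 on vehicle and 12.89, 13.32, 12.97, 13.001 and 13.07 on finasteride. In wild type all finasteride libraries lay below vehicle, and in the mutant all lay above vehicle and reached the wild-type vehicle level. Fkbp5 fell by 1.70 ± 0.30 in wild type and rose by 1.54 ± 0.30 in the mutant, an interaction of 3.24 ± 0.42 (adjusted p = 1.72e-05).

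Steap4, a metalloreductase, fell by 1.54 ± 0.17 in wild type and rose by 1.40 ± 0.17 in the mutant. Its mutant vehicle level lay near that of wild type on finasteride, at 7.69 to 7.85 against 7.07 to 7.93. On finasteride the mutant stood near wild type on vehicle, at 8.91 to 9.45 against 8.71 to 9.18. Sord, sorbitol dehydrogenase, is also androgen-induced but went the other way, as it rose by 1.45 ± 0.14 in wild type and fell by 1.68 ± 0.14 in the mutant (interaction -3.13 ± 0.20, adjusted p = 3.09e-08). Fkbp5, Steap4 and Sord had the same opposite responses over 11 libraries.

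Not every androgen-driven gene reversed. Probasin (Pbsn), an abundant androgen-driven secretory protein, read 18.08, 18.31 and 18.30 in wild type on vehicle and 18.18, 17.50, 17.92, 18.12 and 18.32 on finasteride. In the mutant Pbsn read 15.66, 15.73 and 15.69 on vehicle and 11.46, 10.35, 11.39, 11.13 and 11.09 on finasteride, below every other library. It fell by 4.61 ± 0.22 in the mutant (adjusted p = 1.65e-09), while the wild-type change of -0.22 did not pass (adjusted p = 0.448). Under quantile normalization the wild-type value changed sign and passed, at 0.72 (adjusted p = 0.0376). Mme (neprilysin), a membrane peptidase, fell in both genotypes, by 2.20 ± 0.14 in wild type and by 0.88 ± 0.14 in the mutant, so its interaction of 1.33 ± 0.19 is a difference in size.

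The targets of the drug had low levels. Srd5a2, the type 2 5-alpha-reductase, read 7.61, 7.33 and 7.73 and 6.26, 6.76, 6.30, 6.20 and 5.63 in wild type on vehicle and finasteride. In the mutant Srd5a2 read 6.53, 6.43 and 6.52 and 7.53, 6.91, 7.42, 7.47 and 7.36. It fell by 1.33 ± 0.20 in wild type and rose by 0.85 ± 0.20 in the mutant, with no overlap in either genotype, and the rise in the mutant missed the threshold over 11 libraries. Srd5a1, the type 1 enzyme, had an interaction of 0.62 ± 0.18 (adjusted p = 0.008) that missed the threshold over 11 libraries (adjusted p = 0.0767) and changed sign under quantile normalization.

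A few other steroid enzymes fell in wild type and rose in the mutant. Of 23 steroid receptor and enzyme genes, the interaction was higher for 12 (29.4% of all tested genes) and lower for 4 (27.1%). Under quantile normalization it was higher for 9 and lower for 6. Of the 23, 5 had this opposite response (12.1% of all tested genes did), 3 of them over 11 libraries (2.05%). In wild type 9 fell and 2 rose, and in the mutant 8 rose and 5 fell. Of all tested genes 21.7% fell and 18.4% rose in wild type, and 25.7% rose and 22.8% fell in the mutant. Sult1e1, which inactivates oestrogens by sulphation, fell by 1.59 ± 0.17 in wild type and rose by 1.89 ± 0.17 in the mutant (interaction 3.49 ± 0.24, adjusted p = 6.11e-08). The aldo-keto reductases Akr1c12 and Akr1c13, close copies whose reads may be shared, had interactions of 2.64 ± 0.23 and 2.73 ± 0.30. In all 3 the mutant vehicle libraries lay below the wild-type vehicle libraries, for Sult1e1 at 6.93 to 7.01 against 9.01 to 9.43.

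Secreted prostate proteins did not move as a block. Of 25 secretory genes, 11 fell and 3 rose in wild type, and 10 rose and 8 fell in the mutant. The interaction was higher for 11 (29.4% of all tested genes) and lower for 8 (27.1%). Msmb, beta-microseminoprotein, read 15.73, 16.39 and 16.10 in wild type on vehicle and 8.65, 13.62, 10.86, 10.82 and 10.79 on finasteride. In the mutant Msmb read 9.90, 9.29 and 9.58 on vehicle and 12.89, 13.06, 13.04, 12.90 and 13.05 on finasteride. Msmb fell by 5.13 ± 0.67 in wild type and rose by 3.40 ± 0.67 in the mutant, where finasteride brought it part of the way back to the wild-type vehicle level. Clu (clusterin), a secreted chaperone, fell by 1.58 ± 0.16 and rose by 1.46 ± 0.16, and was more abundant in the mutant, at 14.78 to 14.99 on vehicle against 12.60 to 12.73 in wild type. Both were opposite over 11 libraries.

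Pigr, the receptor that carries polymeric antibodies across epithelium, fell by 2.41 ± 0.60 in wild type and rose by 5.91 ± 0.60 in the mutant. Its wild-type finasteride libraries ranged from 10.50 to 14.47. Mug1 (murinoglobulin, a protease inhibitor), Adam7, H2-Q10 (a secreted class I histocompatibility protein), Atp2c2 (a Golgi calcium and manganese pump) and Slc26a4 (the anion exchanger pendrin) had some of the largest interactions and the widest spread. In wild type on finasteride Mug1 read 3.41, 11.65, 10.65, 9.82 and 3.32, Atp2c2 4.22, 10.52, 9.86, 8.96 and 4.70 and Slc26a4 3.98, 11.26, 10.85, 9.81 and 4.06. For these 3 genes libraries 2, 3 and 4 stayed nearer to the vehicle level and libraries 1 and 5 fell far below it. The interactions were 12.54 ± 2.18 for Mug1, 10.79 ± 1.46 for Adam7, 8.67 ± 1.31 for H2-Q10, 8.61 ± 1.59 for Atp2c2 and 8.19 ± 1.93 for Slc26a4. None of these 6 genes kept an opposite response over 11 libraries. Leaving out wild-type vehicle library 1 or 3 ended the wild-type call of Mug1, Atp2c2 and Slc26a4. That call also ended without wild-type finasteride library 1 or 5, or wild-type vehicle library 2, for Atp2c2, and without any of 11 libraries in turn for Slc26a4. H2-Q10 has near-identical copies that may share reads.

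Seminal vesicle proteins, which can enter a prostate dissection with adjoining tissue, had the widest swings. Of 11 tested members, the interaction was higher for 8 (29.4% of all tested genes) and lower for 1 (27.1%) over 16 libraries. Over 11 libraries 1 of the 11 members had an interaction past the threshold, a lower one. Svs2 read 19.94, 8.01 and 18.60 in wild type on vehicle and 9.20, 9.01, 7.91, 7.84 and 7.78 on finasteride. In the mutant Svs2 read 11.31, 13.31 and 12.18 on vehicle and 21.17, 11.52, 21.002, 20.49 and 20.06 on finasteride. In both genotypes 1 library went against its group, wild-type vehicle 2 and mutant finasteride 2, so the groups overlapped. The interactions of Svs2 (13.75 ± 3.31) and Pate4 (12.59 ± 3.28) missed the threshold over 11 libraries, and the opposite response of Svs2 was lost in 9 of the 16 fits that left out 1 library.

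Markers of proximal luminal cells, the castration-tolerant cells near the urethra that express stem-like genes, fell in wild type and rose in the mutant. Of 14 tested members, 12 fell in wild type and 13 rose in the mutant, and 12 did both, 4 of them over 11 libraries. Of all tested genes 21.7% fell in wild type, 25.7% rose in the mutant and 12.1% did both (2.05% over 11 libraries). The interaction was higher for 13 of the 14 over 16 and over 11 libraries (29.4% and 17% of all genes). The median response of the list was -1.18 in wild type and 2.17 in the mutant. The summed log2 level was 14.2 to 14.3 in wild type on vehicle, 13.2 to 13.4 in wild type on finasteride, 15.3 to 15.5 in the mutant on vehicle and 16.7 to 16.8 in the mutant on finasteride. This sum is weighted toward abundant members such as Clu. The mean over the 14 members ordered the vehicle groups the other way, at 8.94 to 9.04 in wild type and 8.55 to 8.61 in the mutant. On finasteride that mean was 7.30 to 8.11 in wild type and 10.7 to 11.1 in the mutant. In bulk tissue, fewer cells of a type and less RNA per cell cannot be told apart.

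Ly6a (Sca-1), a surface marker of these cells, was among the steadiest. Ly6a read 10.23, 10.14 and 10.04 in wild type on vehicle and 9.26, 9.29, 8.80, 9.08 and 9.17 in wild type on finasteride. In the mutant, Ly6a read 10.06, 10.30 and 10.20 on vehicle and 11.88, 12.26, 12.06, 12.03 and 12.22 on finasteride. The vehicle groups overlapped, wild type on finasteride lay below them and the mutant on finasteride above them. Ly6a fell by 1.02 ± 0.11 in wild type and rose by 1.90 ± 0.11 in the mutant, an interaction of 2.92 ± 0.15 (adjusted p = 5e-09). Ppp1r1b (DARPP-32), a phosphatase inhibitor, fell by 1.19 ± 0.23 in wild type and rose by 3.18 ± 0.23 in the mutant, where the 5 finasteride libraries read 10.35, 10.27, 10.26, 10.38 and 10.32. Both were opposite over 11 libraries.

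Other epithelial lists were mixed. Of 20 general luminal markers, the interaction was higher for 4 and lower for 9, and under quantile normalization 6 were higher and 4 lower. Of 19 basal markers, 9 were higher and 4 lower, where 29.4% and 27.1% of all tested genes were. The hemidesmosome integrin chains went apart: Itgb4 fell by 0.49 ± 0.073 in wild type and rose by 0.78 ± 0.073 in the mutant, whereas its partner Itga6 rose by 0.40 ± 0.083 and fell by 0.42 ± 0.083. Both were opposite over 11 libraries. Of 19 developmental transcription factors, 6 had an upward and 3 a downward opposite response in wild type (7.92% and 12.1% of all tested genes). The interaction was higher for 7 and lower for 8 of them, and in wild type 6 rose and 7 fell. Among the upward ones, Gata3 rose by 0.82 ± 0.13 in wild type and fell by 0.77 ± 0.13 in the mutant. Tbx3 rose by 0.60 ± 0.11 and fell by 0.68 ± 0.11. Both were higher in the mutant on vehicle, for Gata3 at 13.13 to 13.41 against 11.64 to 12.11, and finasteride brought the genotypes closer.

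Fut9, a fucosyltransferase that builds the Lewis x structure, was among the genes with the largest opposite responses upward in wild type. It read 9.61, 11.37 and 10.99 in wild type on vehicle and 11.68, 12.40, 12.41, 12.51 and 12.62 on finasteride. In the mutant Fut9 read 12.15, 11.94 and 12.06 on vehicle and 6.99, 8.10, 7.22, 7.53 and 7.95 on finasteride. The mutant thus started at the level that wild type reached on the drug and lost it. Fut9 rose by 1.67 ± 0.33 in wild type and fell by 4.49 ± 0.33 in the mutant (interaction -6.16 ± 0.47, adjusted p = 1.47e-07).

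Atp12a, a proton-potassium pump, was steadier. Atp12a read 12.25, 12.75 and 12.53 in wild type on vehicle and 13.73, 13.68, 13.74, 13.73 and 13.68 in wild type on finasteride. In the mutant, Atp12a read 13.14, 13.46 and 13.29 on vehicle and 9.65, 10.25, 9.85, 9.90 and 10.10 on finasteride. The mutant finasteride libraries lay well below all others. Atp12a rose by 1.20 ± 0.12 in wild type and fell by 3.35 ± 0.12 in the mutant, an interaction of -4.55 ± 0.18 (adjusted p = 3.66e-10). The interaction was -5.97 ± 0.59 for C1rb, a copy of the complement protease C1r that may share reads with it, and -5.17 ± 0.49 for Glb1l3, a relative of beta-galactosidase. It was -4.38 ± 0.46 for Gxylt2, a xylosyltransferase, and -4.44 ± 0.57 for Golt1a, named for Golgi transport. Mt3, a metallothionein, had -5.27 ± 0.70 and Fam222a had -4.74 ± 0.56. Fut9, Atp12a and these 6 genes had opposite responses over 11 libraries. Wild-type vehicle library 1 was the lowest of its group for all 8, for example 6.17, 9.38 and 8.54 for Mt3.

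For Ren1 and Mcoln3 the wild-type rise missed the threshold without that library. Ren1 (renin) read 7.84, 16.58 and 15.65 in wild type on vehicle, and its response of 4.31 became 1.55 without library 1 (adjusted p = 0.209). It also missed the threshold without wild-type finasteride library 1 (adjusted p = 0.0546) or 5 (adjusted p = 0.0535), and the fall in the mutant did so without mutant vehicle library 1 (adjusted p = 0.0614) or 3 (adjusted p = 0.0528). Ren1 has a near-identical copy in some strains. Mcoln3, a lysosomal channel, had a wild-type rise of 1.40 that became 1.01 without library 1 (adjusted p = 0.0523). Pnliprp1, a pancreatic lipase relative, and Olfm4, a secreted glycoprotein of epithelial crypts, had vehicle libraries at 7.003, 11.37 and 10.68 and 2.46, 7.60 and 7.06, so library 1 was again the lowest, and both kept an opposite response without any 1 library. None of these 4 genes had an opposite response over 11 libraries, although each still had an interaction past the threshold.

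**Figure D4:**
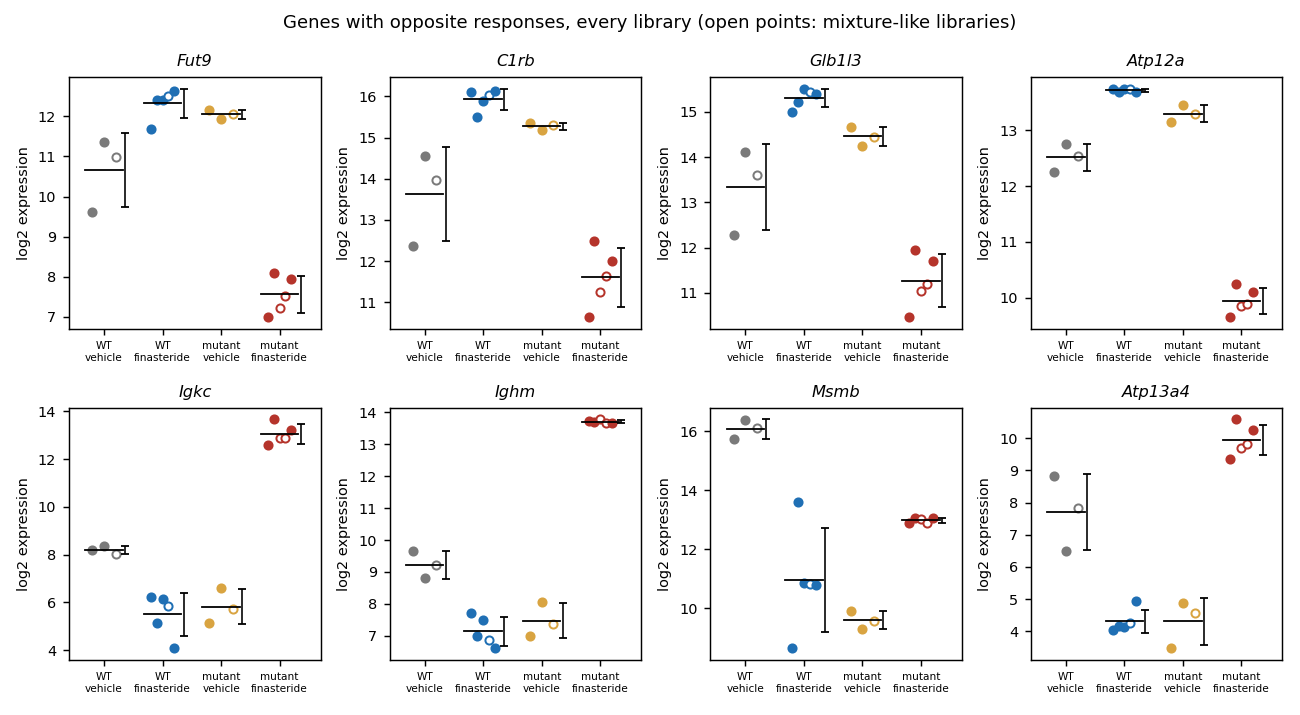
Deposited log2 expression (y axis, a separate range for each panel) of 8 genes with large opposite responses in every library by group (x axis). Points are libraries, open points are mixture-like libraries, lines are group means and bars the SD (n = 3 on vehicle, n = 5 on finasteride). By group mean, the upper row is highest in wild type on finasteride and lowest in the mutant on finasteride, and in the lower row the mutant on finasteride is higher than the mutant on vehicle while wild type on finasteride is lower than wild type on vehicle.

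Antibody genes were among the largest rises in the mutant. Ighm, the heavy chain of IgM, was the tightest example. Ighm read 9.67, 8.80 and 9.21 in wild type on vehicle and 7.71, 6.995, 7.49, 6.86 and 6.61 in wild type on finasteride. In the mutant, Ighm read 6.98, 8.06 and 7.37 on vehicle and 13.72, 13.71, 13.78, 13.68 and 13.68 on finasteride. All 5 mutant finasteride libraries lay above every other library, and wild type on finasteride lay below wild type on vehicle. Ighm fell by 2.09 ± 0.25 in wild type and rose by 6.24 ± 0.25 in the mutant, an interaction of 8.34 ± 0.36 (adjusted p = 8.85e-10).

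The light chain Igkc fell by 2.70 ± 0.42 in wild type and rose by 7.22 ± 0.42 in the mutant, and Igj, the joining chain of polymeric antibodies, fell by 2.39 ± 0.27 and rose by 6.19 ± 0.27. Atp13a4, a P-type ATPase, moved alike, as it fell by 3.40 ± 0.44 and rose by 5.63 ± 0.44. All 4, with Ighm, were opposite over 11 libraries. Antibody segments resemble each other, so reads may have been split between copies. Pou2af1, a coactivator of B cells, fell by 1.07 ± 0.21 in wild type and rose by 3.45 ± 0.21 in the mutant, and its wild-type fall missed the threshold over 11 libraries. Of 17 B and plasma cell markers, 7 fell in wild type, 15 rose in the mutant, and 7 had opposite responses, 3 of them over 11 libraries and 4 under quantile normalization. Of all tested genes 21.7% fell in wild type, 25.7% rose in the mutant and 12.1% did both (2.05% over 11 libraries). For the 17 markers the mutant rise was the larger part, with medians of -0.82 in wild type and 2.97 in the mutant. Their summed level was 13.03 to 13.2 in wild type on vehicle, 12.9 to 13.2 in wild type on finasteride, 12.99 to 13.01 in the mutant on vehicle and 14.6 to 15.03 in the mutant on finasteride.

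Macrophage and dendritic markers moved in the same direction. Of 23 members, 11 fell and 1 rose in wild type, 18 rose and 2 fell in the mutant, and 10 had opposite responses downward in wild type (12.1% of all tested genes did), 4 of them over 11 libraries (2.05%). Trem2, a lipid receptor of macrophages, fell by 0.96 ± 0.16 in wild type and rose by 2.11 ± 0.16 in the mutant, and Mrc1, the mannose receptor, fell by 1.16 ± 0.15 and rose by 1.16 ± 0.15. Mertk, a receptor for dying cells, was the exception, as it rose by 1.02 ± 0.13 and fell by 1.62 ± 0.13. Trem2, Mrc1 and Mertk were opposite over 11 libraries.

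Of 21 T and NK cell markers, 6 fell in wild type and 16 rose in the mutant, and 3 did both, a share near the 12.1% of all tested genes. Under quantile normalization 3 fell and 9 rose. Of 18 antigen presentation genes, 7 fell in wild type and 17 rose in the mutant, and 6 did both. Of 28 interferon response genes, 16 fell in wild type, 14 rose in the mutant and 9 did both. The last count was 4 under quantile normalization, where 8 fell in wild type, and 16 without finasteride library 2 of each genotype. Over all tested genes 21.7% fell in wild type and 25.7% rose in the mutant. Over 11 libraries the members of these 3 lists that did both came to 1, an interferon response gene, while higher interactions numbered 12, 13 and 8 in the order given (17% of all genes). Ifit3, an antiviral protein, fell by 1.11 ± 0.20 in wild type and rose by 1.30 ± 0.20 in the mutant. Lcn2 (lipocalin 2), which withholds iron from bacteria, fell by 1.51 ± 0.18 and rose by 3.30 ± 0.18 (interaction 4.81 ± 0.25, adjusted p = 4.09e-09), and Fcgbp, a mucus protein, went the other way, as it rose by 1.74 ± 0.21 and fell by 2.35 ± 0.21. Ifit3, Lcn2 and Fcgbp were opposite over 11 libraries.

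Many fibroblast and matrix genes also fell in wild type and rose in the mutant. Of 30 fibroblast and matrix genes, 16 fell in wild type (21.7% of all tested genes did), and 22 rose (25.7%) and 1 fell in the mutant. Opposite responses numbered 14 (12.1% of all tested genes), 5 of them over 11 libraries (2.05%). Postn (periostin), a matrix protein, read 10.35, 9.98 and 10.20 in wild type on vehicle and 9.25, 9.50, 9.42, 9.44 and 9.56 on finasteride. In the mutant Postn read 9.13, 8.84 and 9.02 on vehicle and 10.13, 9.97, 10.14, 10.11 and 10.23 on finasteride. The mutant on vehicle and wild type on finasteride were both low. Postn fell by 0.74 ± 0.094 in wild type and rose by 1.12 ± 0.094 in the mutant, an interaction of 1.86 ± 0.13 (adjusted p = 8.2e-08). Vim (vimentin), the mesenchymal intermediate filament, had an interaction of 2.13 ± 0.18, and S100a4 (fibroblast-specific protein) one of 2.73 ± 0.23.

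Of 19 endothelial genes, 6 had opposite responses downward in wild type (12.1% of all tested genes did). This count was 1 over 11 libraries (2.05% of all genes) and 1 under quantile normalization. Tek, the angiopoietin receptor, had an interaction of 1.62 ± 0.17. Of 18 smooth muscle genes, 15 rose in the mutant (25.7% of all tested genes), and 1 fell and 1 rose in wild type. The interaction was higher for 6 of the 18, near the 29.4% of all tested genes, and did not pass for 12. Most of these genes were therefore not shown to respond differently by genotype. Over 11 libraries the interaction was higher for 1 (17% of all genes). Of 18 adipocyte genes, 15 fell in wild type and 8 rose in the mutant, beside 21.7% and 25.7% of all tested genes. Opposite responses of adipocyte genes numbered 6 over 16 libraries, 1 over 11 and 12 without finasteride library 2 of each genotype, where 13 rose in the mutant. Lep (leptin), the fat hormone, fell by 2.90 ± 0.33 in wild type and rose by 1.64 ± 0.33 in the mutant. Of 15 skeletal muscle genes, 6 had opposite responses (12.1% of all tested genes), 1 of them over 11 libraries (2.05%). Actn3 had an interaction of 2.29 ± 0.21. Vim, S100a4, Postn, Tek, Lep and Actn3 were opposite over 11 libraries. The summed adipocyte level was 12.9 to 13.3 in wild type on vehicle, 11.2 to 12.5 in wild type on finasteride, 12.1 to 12.3 in the mutant on vehicle and 12.9 to 13.01 in the mutant on finasteride.

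Nerve and neuroendocrine genes fell in wild type and rose in the mutant over 16 libraries. Of 21 nerve and glia genes, 17 fell in wild type (21.7% of all tested genes) and 17 rose in the mutant (25.7%), and 14 did both (12.1%). None of the 14 did so over 11 libraries, where 16 of the 21 still had a higher interaction (17% of all genes). Stmn2, a neuronal microtubule protein, read 6.84, 9.92 and 9.24 in wild type on vehicle and 6.10, 5.52, 5.38, 5.40 and 4.92 on finasteride. In the mutant Stmn2 read 6.001, 4.44 and 5.35 on vehicle and 9.45, 6.48, 9.26, 8.88 and 8.47 on finasteride. Mutant finasteride library 2 was low, as it was for Svs2, whereas wild-type vehicle library 2 was high for Stmn2 and low for Svs2. L1cam, a neural adhesion molecule, had an interaction of 3.76 ± 0.56. All 9 neuroendocrine genes had a higher interaction (29.4% of all tested genes did), 7 of them over 11 libraries (17%), with Chga (chromogranin A) at 3.85 ± 0.49. The summed nerve level was 11.3 to 13.3 in wild type on vehicle, 10.8 to 11.1 in wild type on finasteride, 10.6 to 11.01 in the mutant on vehicle and 10.8 to 14.2 in the mutant on finasteride, and its part in these results was not tested.

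Antioxidant enzymes mostly had a higher interaction. Of 29 members, 18 were higher and 5 lower, with 8 opposite downward and 4 opposite upward in wild type. Over all tested genes the shares were 29.4% higher, 27.1% lower, 12.1% opposite downward and 7.92% opposite upward. Gsta4, a glutathione transferase for lipid aldehydes, read 9.09, 8.43 and 8.77 in wild type on vehicle and 7.54, 8.09, 7.60, 7.73 and 7.55 on finasteride. In the mutant Gsta4 read 7.81, 7.87 and 7.99 on vehicle and 10.56, 10.25, 10.54, 10.48 and 10.41 on finasteride, above all other libraries. Gsta4 fell by 1.06 ± 0.14 in wild type and rose by 2.56 ± 0.14 in the mutant, an interaction of 3.62 ± 0.20 (adjusted p = 8.67e-09). Gpx2, an epithelial glutathione peroxidase, had an interaction of 4.57 ± 0.32, and Sod3, the extracellular superoxide dismutase, one of 3.90 ± 0.37. The metal-binding metallothioneins moved the other way: Mt1 rose by 1.05 ± 0.14 in wild type and fell by 0.87 ± 0.14 in the mutant, and Mt2 rose by 1.03 ± 0.12 and fell by 0.73 ± 0.12. All 5 were opposite over 11 libraries.

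Of 23 fatty acid genes, 3 had a downward and 2 an upward opposite response in wild type, and 9 had no interaction past the threshold. Both opposite counts are near the shares over all tested genes, 12.1% downward and 7.92% upward. Scd1, which desaturates fatty acids, fell by 0.95 ± 0.075 in wild type and rose by 0.80 ± 0.075 in the mutant (interaction 1.75 ± 0.11, adjusted p = 1.88e-08). Dgat2, which completes triglycerides, fell by 2.38 ± 0.22 and rose by 1.39 ± 0.22. Acsl3, which activates fatty acids and is known as androgen-responsive in human prostate cells, rose by 1.75 ± 0.24 and fell by 2.19 ± 0.24. Idh3a, of the citrate cycle, fell by 0.51 ± 0.073 and rose by 0.55 ± 0.073. These 4 genes were opposite over 11 libraries. Of 40 cell cycle genes, 22 fell in wild type and 6 fell in the mutant, and 23 had no interaction past the threshold. Of all tested genes 21.7% fell in wild type and 22.8% in the mutant. The order turned round under quantile normalization, with 15 falling in wild type and 22 in the mutant. A higher interaction was found for 13 over 16 libraries, 8 with centred columns, 6 under quantile normalization and 22 without finasteride library 2 of each genotype. The median interaction of that list changed sign, from 0.34 to -0.23 under quantile normalization. Ccnd1 (cyclin D1) fell by 0.88 ± 0.23 in wild type and rose by 1.47 ± 0.23 in the mutant, and its wild-type fall missed the threshold over 11 libraries.

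Interactions outside the opposite classes were also common. The mutant response alone passed for 3222 genes, the wild-type response alone for 2110 and neither for 637, while 60 genes passed in the same direction in both. A response that missed the threshold can still have the opposite sign, so only the 60 are shown not to reverse. In the 637, for example, the median responses were 0.14 in wild type and -0.13 in the mutant. Wbscr17, a relative of the enzymes that start O-linked glycans, rose by 0.93 ± 0.074 in wild type and by 2.56 ± 0.074 in the mutant, from a much lower vehicle level (5.71 to 5.88 against 9.17 to 9.27). Usp16, a deubiquitinase, fell by 0.49 ± 0.089 and by 1.60 ± 0.089, from a higher vehicle level (13.08 to 13.25 against 11.96 to 12.22), and the finasteride groups then overlapped at 11.40 to 11.78 and 11.46 to 11.69.

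**Figure D5:**
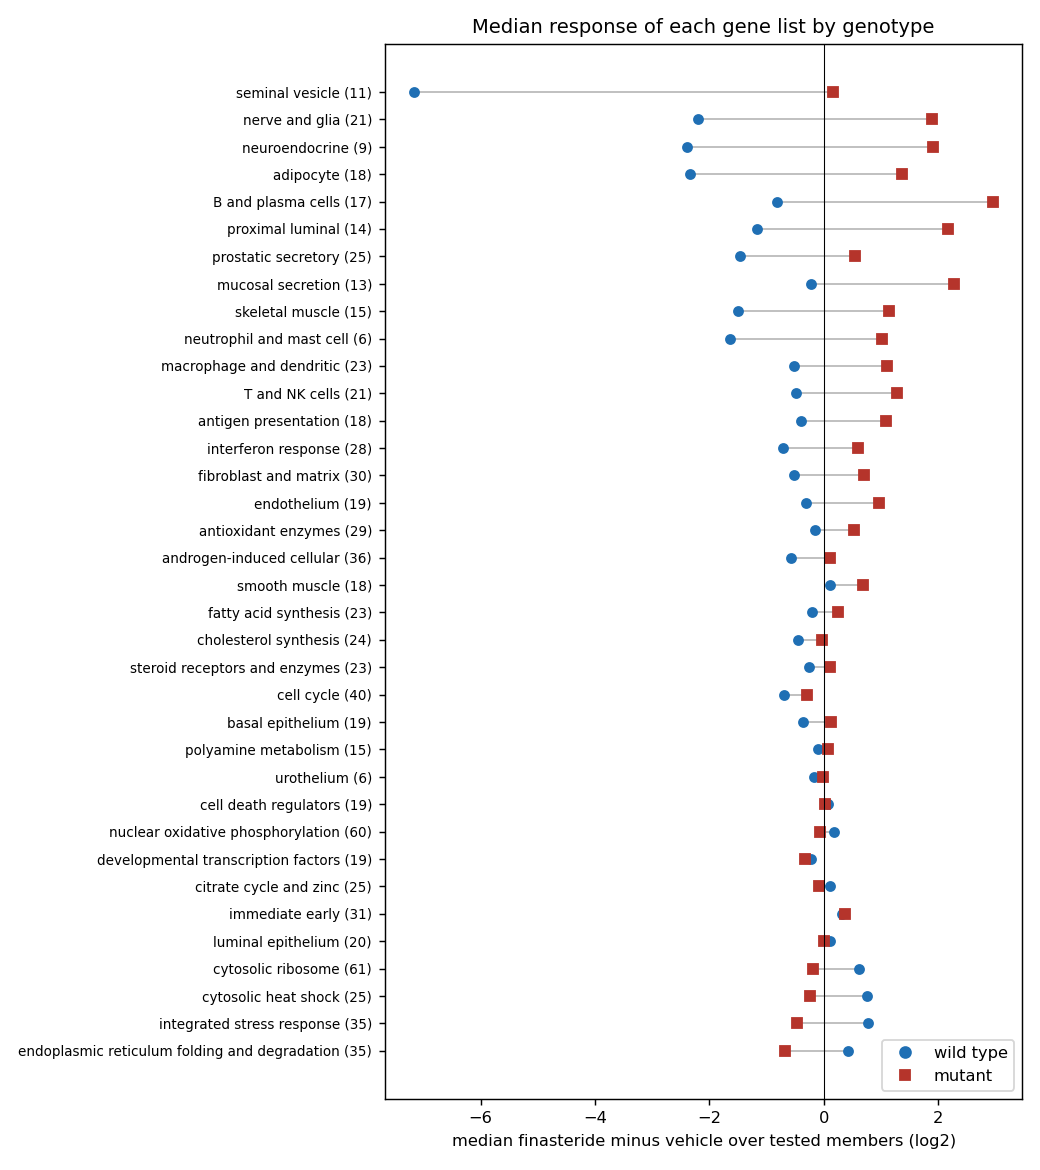
Median finasteride response over the tested members of each gene list (x axis, log2) in wild type (blue circles) and in the mutant (red squares), with the number of tested members in parentheses; points are medians and have no error bar. Lists of fibroblast, endothelial, adipocyte, immune and nerve genes lie below 0 in wild type and above 0 in the mutant, and the endoplasmic reticulum and integrated stress lists show the reverse order.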

How the data were processed

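Poly-A RNA of prostate tissue was sequenced on an Illumina HiSeq2000 from TruSeq libraries, per the labels' protocols. CASAVA 1.8.2, TopHat, Cufflinks, DESeq and DESeq2 and the build mm9 are named in the submitters' processing notes, which do not say which tool made the table. The deposited values are normalized log2 expression; the base was inferred from their totals, depth is unknown, and folds of low genes may be understated.

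A linear model of 4 group means was fitted to these log2 values with limma 3.58.1 (R 4.3.3; empirical Bayes with trend) over 16506 genes, those whose mean reached 3.32 (log2 of 10). The Benjamini-Hochberg adjustment of p-values ran over this set (threshold 0.05, two-sided), errors are moderated SE, and the fit was tested on simulated data. A library was called mixture-like, over genes with log2 values of at least 8, at a residual SD under 0.1 with both weights over 0.2.

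Named genes were the 12 largest opposite responses each way, the 3 lowest p per list, the largest single-genotype and same-direction interactions, Pbsn, Fkbp5, Srd5a1 and Srd5a2; the text gives a subset and adds stress genes with promoter motifs, chosen after their values were seen. Members and lists were chosen with earlier results of these data known. Promoters matched 12025 of the 16506 genes, under the 80% set as a minimum, so motif shares by response class over all genes were not computed, and matches in list members are descriptions. The gene named by the genotype label is not reported here.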

Additional observations from a re-analysis of the deposited data

Results flagged for a closer look

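The difference between genotypes was itself tested by the interaction, which passed for 4858 genes with a higher and 4481 with a lower response in the mutant, among them 2002 and 1308 genes with opposite responses, respectively. The interaction of each gene stands with its description and is not repeated.

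Among the 5 libraries of each finasteride group, 17 values of the 192 sets examined (named genes and the first principal component) lay far from the other 4, by Dixon's gap ratio over 0.71. Chance gives about 1 in 20. Library 2 of the mutant on finasteride gave 9 of them, where its log2 value and the range of the others were 11.52 against 20.06 to 21.17 for Svs2, 8.17 against 15.87 to 16.90 for Pate4 and 7.85 against 9.29 to 9.68 for Spink11. For Adam7 they were 8.32 against 9.07 to 9.33, for Srd5a2 6.91 against 7.36 to 7.53 and for Sord 10.78 against 11.06 to 11.15. The same library read 13.24 against 12.75 to 12.87 for Fkbp4, 11.20 against 11.01 to 11.06 for Aars and 10.01 against 10.23 to 10.32 for Asns. Mutant finasteride library 5 read 7.16 against 6.88 to 6.92 for Srd5a1. In wild type on finasteride, library 1 read 12.85 against 12.97 to 13.01 for Atf6, 11.68 against 12.40 to 12.62 for Fut9 and 8.22 against 7.64 to 7.79 for S100a4. Library 2 read 9.45 against 9.27 to 9.32 for Itgb4, 14.95 against 15.39 to 15.49 for Mt1 and -29.46 against -78.28 to -65.50 on the first component. Library 5 read 4.95 against 4.04 to 4.26 for Atp13a4. The direction and call of the interaction held for all of these genes without the library in question. Spink11, a protease inhibitor, fell by 4.43 ± 0.76 in wild type and rose by 3.54 ± 0.76 in the mutant, and lost its opposite response over 11 libraries.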

How the results depend on the processing

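Without the 5 mixture-like libraries, the interaction counts were 2814 higher and 2027 lower, the wild-type counts 602 risen and 835 fallen, the mutant counts 1811 and 1525, and the opposite counts 222 and 338. With array weights, whose estimate did not converge, the wild-type counts were 5157 and 5705, the mutant fell count 6141 and the opposite counts 3191 and 3642. Genes opposite upward in wild type numbered 2174 with centred columns and 2180 without finasteride library 2 of each genotype, a choice made after seeing the data. Genes opposite downward numbered 1273 under quantile normalization. The causes were not tested. The other counts stayed within 1.5 times under these settings, no or a stricter floor on low values, 10 added on the linear scale and limma without the trend. Leaving out 1 library gave 4461 to 5214 interactions higher and 3880 to 4900 lower, 1931 to 3544 genes risen and 2551 to 4088 fallen in wild type, 3449 to 4624 risen and 2907 to 4193 fallen in the mutant, and 959 to 1786 and 1493 to 2404 opposite. The 1931 came without wild-type vehicle library 1. Of 146 named genes, the interaction of Srd5a1 changed sign under quantile normalization (-0.19), and 14 missed the threshold over 11 libraries. List counts were not recomputed for each left-out library. No paired analysis was possible because the sample titles carry running numbers that no groups share.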

Other observations

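Further lists are given by their counts. Of all tested genes 29.4% had a higher and 27.1% a lower interaction. In cholesterol synthesis, 12 of 24 genes fell in wild type (21.7% of all tested genes) and 6 rose in the mutant (25.7%), and 4 did both (12.1%). Among 23 fatty acid genes the interaction was higher for 11 and lower for 3, and among 25 citrate cycle and zinc genes for 5 and 9. With columns centred on their medians the fatty acid counts were 7 and 6, and under quantile normalization the citrate cycle and zinc counts were 8 and 5. Polyamine metabolism gave 6 higher and 4 lower of 15, and cell death regulators 6 and 7 of 19. Immediate early genes rose in each genotype, 18 of 31 in wild type (18.4% of all tested genes) and 16 in the mutant (25.7%). Mucosal secretion genes had 9 of 13 higher, with a median response of -0.23 in wild type and 2.28 in the mutant. All 6 neutrophil and mast cell markers tested were higher, with a median interaction of 2.37, and the 6 urothelial markers split with 2 higher and 2 lower. Over 11 libraries the higher interactions of the mucosal and neutrophil lists numbered 6 and 4 (17% of all genes).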
